A study of Mus musculus with 6 samples.

Results

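The amine receptors described here are 10 genes: the serotonin receptors Htr2c, Htr1a, Htr1b and Htr2a, the histamine receptors Hrh1 and Hrh3, the adrenergic receptors Adrb1 and Adra2a, and the dopamine receptors Drd1 and Drd2. They were chosen by name, and every array probe annotated to one of these symbols was taken, which gave 13 of 45281 probes. They stand for 8 of the 10 genes, out of 19057 genes with a probe on the array, since no probe used here is annotated to Adrb1 or Adra2a. The RNA came from the ventromedial hypothalamus (VMH) of untreated mice on a mixed strain background. It was read on 6 Illumina Mouse-6 V2 BeadChip arrays, 3 from mice with a FoxO1 knockout specific to the VMH (KO) and 3 from wild-type mice (WT). Each array carried RNA pooled from 3 animals. Neither age nor the driver that restricts the deletion to the VMH is stated in the labels.

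Serotonin, histamine, noradrenaline and dopamine are small signalling molecules made by few groups of neurons whose fibres reach most of the brain. All 10 genes encode receptors that cross the membrane and act through G proteins. Htr1a, Htr1b, Hrh3, Adra2a and Drd2 couple to inhibitory G proteins that lower cyclic AMP, Drd1 and Adrb1 to stimulatory ones that raise it, and Htr2a, Htr2c and Hrh1 to the Gq class that activates phospholipase C. In the hypothalamus, serotonin acting on Htr2c and histamine acting on Hrh1 are known to reduce feeding. Insulin signalling removes the transcription factor FoxO1 from the cell nucleus, and the comparison addresses which transcripts of the VMH differ when it is lost.

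All 8 VMH markers examined, among them Fezf1, Sox14 and Slc17a6, were detected on each array, whereas 3 of 4 cortical and hippocampal markers with a probe were detected on none. The VMH marker Nr5a1 was dim, with signals from 181.1 to 217.6 and a detection p of up to 0.0203. KO 1 stood apart from the other arrays: its mean correlation with them was 0.954, against 0.977 to 0.981 for the others. It was the lowest array for 32.9% and the highest for 36.6% of the 20006 probes tested. It also had the highest mean of 7 exocrine pancreas markers, a tissue foreign to the sample, at 12.2 log2 against 8.77 to 11.7. All 7 of these markers were detected on every array of both genotypes, and WT 1 came next to KO 1 at 11.7. Of 15 marker lists, 4 had a mean log2 level higher on every KO array than on any WT array. These were 4 microglia markers (KO 7.69 to 7.74, WT 7.32 to 7.62), 4 astrocyte markers (KO 10.73 to 10.91, WT 10.55 to 10.72), 2 red blood cell markers (KO 8.87 to 9.31, WT 8.48 to 8.69) and the cortical and hippocampal ones, near background (KO 4.85 to 4.90, WT 4.72 to 4.82). Among single tested probes, 8.84% were higher on every KO array than on any WT array. The astrocyte markers were mixed, with KO minus WT at 0.52 for Gfap and 0.32 for Aqp4. It was -0.0062 for Gja1 and -0.14 for Aldh1l1. Of the cortical and hippocampal markers, Slc17a7 was detected on 2 KO arrays and on no WT array. Whether these differences between marker lists have a part in the results below was not tested. Because whole tissue was used, fewer cells of a type and less RNA per cell cannot be told apart.

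Detection divided the receptors. A probe counts as detected when its deposited detection p is under 0.05. By this measure 4 of the 13 probes, 1 each for Htr1a, Hrh3, Drd1 and Drd2, were detected on all 6 arrays. The probe of Htr1b and 1 of the 2 probes of Hrh1 were detected on 5 arrays. Of the remaining 7 probes, 2 were detected on a single array and 5 on none. Across the whole array 37.1% of probes were detected on all 6 arrays and 49.8% on none. The lowest signal of any detected probe lay between 164.5 and 170.9 on the different arrays, which marks where signal merges with background. A probe without detection bounds the signal of its own target stretch and says nothing about transcripts that the probe does not match.

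**Figure D1:**
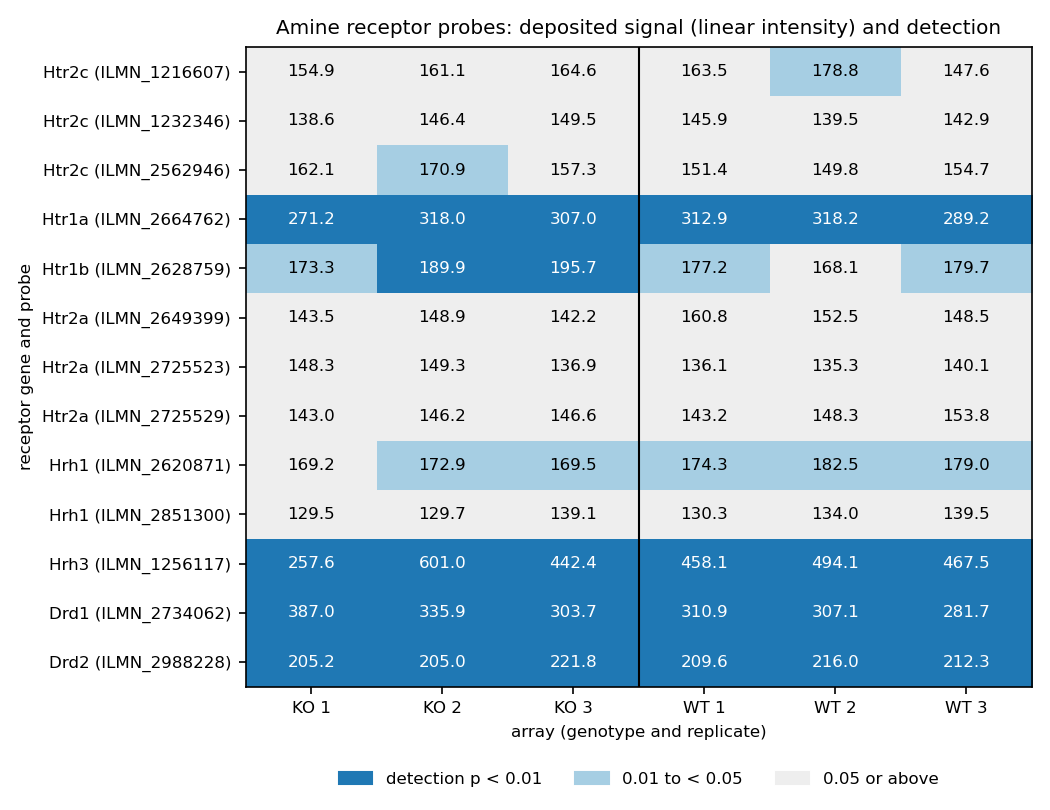
Deposited signal (linear intensity, printed in each cell) of the 13 receptor probes (rows) on the 6 arrays (columns), coloured by detection p. The probes of Htr1a, Hrh3, Drd1 and Drd2 are dark on every array, while all 3 Htr2a probes stay grey and Htr2c is coloured in single cells only.

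Among the serotonin receptors, Htr1a, the inhibitory receptor that also restrains serotonin neurons themselves, was the one detected throughout. Its probe (ILMN_2664762) gave signals of 271.2, 318.0 and 307.0 in KO and 312.9, 318.2 and 289.2 in WT. The genotypes overlapped, with KO 1 lowest of all and KO 2 level with WT 2. After background correction and log2 transformation KO averaged 7.41 ± 0.21 and WT 7.49 ± 0.13 (SD, n = 3 each), which differ by -0.073 (SE 0.17, 95% interval -0.46 to 0.32; limma adjusted p = 0.861). The sign rested on KO 1, since the difference was 0.048 without that array.

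Htr1b, which sits on nerve endings and limits transmitter release, lay close to background. Its signals (ILMN_2628759) were 173.3, 189.9 and 195.7 in KO and 177.2, 168.1 and 179.7 in WT, and WT 2 was the array without detection. KO 2 and KO 3 were above every WT array and KO 1 was below 2 of them. KO averaged 5.87 ± 0.29 and WT 5.59 ± 0.18 (SD, n = 3 each). The difference of 0.29 (SE 0.19, 95% interval -0.16 to 0.73), or 1.22-fold, did not pass (limma adjusted p = 0.590). Leaving out KO 1 raised it to 0.45, with an unadjusted p of 0.0202 and an adjusted p of 0.937. In the uncorrected log2 signal it was 0.089.

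Htr2c, the receptor through which serotonin lowers food intake, was at background on nearly every array. One of its probes (ILMN_1216607) gave 154.9, 161.1 and 164.6 in KO and 163.5, 178.8 and 147.6 in WT, with detection on WT 2 only. For a second Htr2c probe (ILMN_2562946) the signals were 162.1, 170.9 and 157.3 in KO and 151.4, 149.8 and 154.7 in WT, with detection on KO 2 only. All KO signals of this probe exceeded all WT signals, but it was not detected on any WT array and failed the filter for testing. The remaining Htr2c probe (ILMN_1232346) ranged from 138.6 to 149.5 and was detected nowhere. No difference is given for Htr2c, because none of its probes was detected on the 3 or more arrays required for testing.

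Htr2a, a Gq-coupled receptor best known from the cortex, was not detected by any of its 3 probes on any array. Their signals ranged from 142.2 to 160.8 (ILMN_2649399), from 135.3 to 149.3 (ILMN_2725523) and from 143.0 to 153.8 (ILMN_2725529). WT 1 came nearest to detection, with the first of these probes.

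Among the histamine receptors, Hrh3, the inhibitory receptor by which histamine neurons sense their own transmitter and which also limits release at other nerve endings, was detected on every array (ILMN_1256117). Its signals were 257.6, 601.0 and 442.4 in KO, and 458.1, 494.1 and 467.5 in WT. The 3 WT pools lay close together, while the KO pools lay on both sides of them, KO 1 far below and KO 2 above. Averages were 8.07 ± 0.95 for KO and 8.43 ± 0.077 for WT (SD, n = 3 each). The difference was -0.36 (SE 0.40, 95% interval -1.28 to 0.56; limma adjusted p = 0.699). Without KO 1 it was 0.16 and without KO 2 it was -0.77, so the sign of the Hrh3 difference rested on KO 1. On KO 1 Hrh3 deviated by -1.47 log2 from the mean of the other 5 arrays. A shortfall of more than 1 log2 on KO 1 was seen for 6.14% of all tested probes, against 0.215% to 0.615% on each other array.

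Hrh1, the Gq-coupled histamine receptor tied to wakefulness and to reduced feeding, was near background. The one of its probes that was detected (ILMN_2620871) gave 169.2, 172.9 and 169.5 in KO and 174.3, 182.5 and 179.0 in WT. Every KO array was below every WT array, the only tested receptor probe where the genotypes did not overlap. Over all tested probes 15.1% were without overlap, 6.24% with KO below, so 1 of 6 is near that background. KO averaged 5.46 ± 0.059 and WT 5.69 ± 0.11 (SD, n = 3 each), which differ by -0.23 (SE 0.15, 95% interval -0.56 to 0.11; limma adjusted p = 0.585). In the uncorrected log2 signal the difference shrank to -0.066. Detection failed on KO 1 alone. The other Hrh1 probe (ILMN_2851300) ranged from 129.5 to 139.5 and was detected nowhere.

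Hdc, the enzyme that makes histamine and marks the neurons of the neighbouring tuberomammillary nucleus, was detected on all arrays. On one probe (ILMN_2965903) it read 10.49, 10.24 and 11.74 log2 in KO and 10.67, 11.07 and 11.55 in WT. A second probe (ILMN_1256122) read 8.31, 8.04 and 8.98 in KO and 8.22, 8.75 and 9.12 in WT. On both, the level of Hdc varied between pools of one genotype. The array highest in Hrh3, KO 2, was the lowest in Hdc on both probes. KO 1, the lowest in Hrh3, was the next lowest in Hdc on the first probe only. Whether the amount of tuberomammillary tissue in a pool has a part in the Hrh3 values was not tested.

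**Figure D2:**
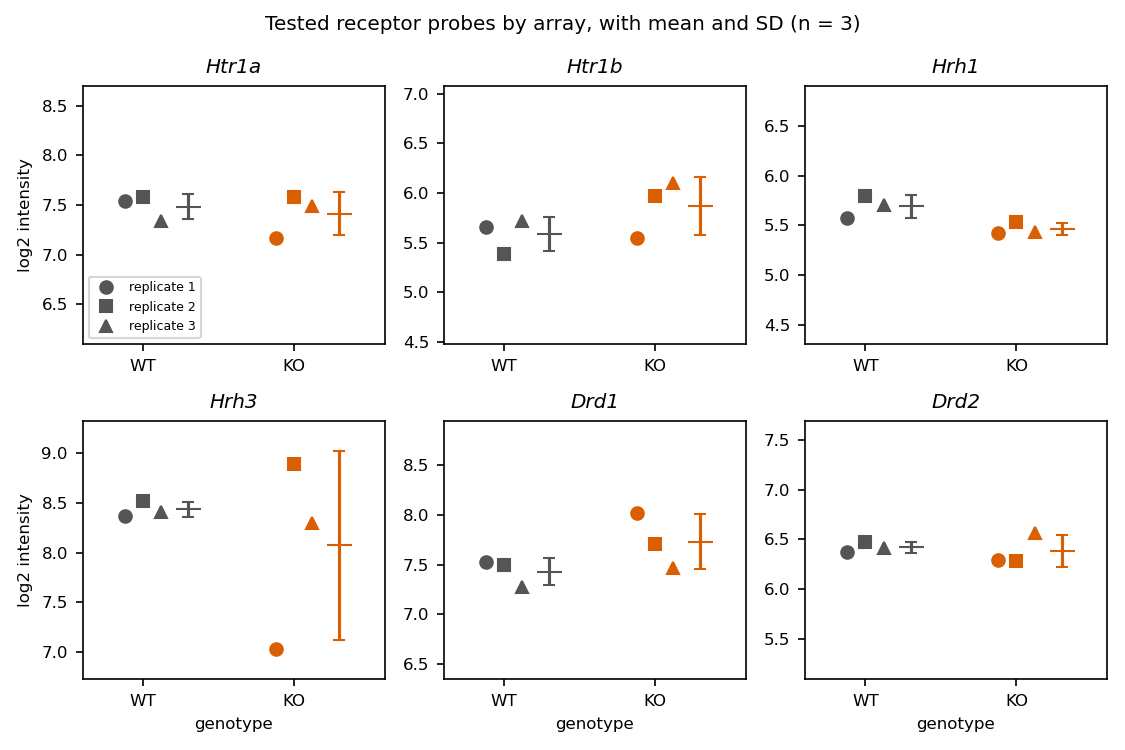
Background-corrected log2 intensity (vertical axes, equal span of 2.6 units in each panel) of the 6 tested receptor probes in WT and KO. Symbols are arrays, and the horizontal dash with its bar is the mean and SD of 3 arrays. Hrh3 has 3 tight WT points and KO points from 7.03 to 8.89, whereas Drd2 varies little.

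Both dopamine receptors were detected on all arrays. Drd1, which raises cyclic AMP, gave signals of 387.0, 335.9 and 303.7 in KO and 310.9, 307.1 and 281.7 in WT (ILMN_2734062). KO 1 and KO 2 were above every WT array and KO 3 was between the WT arrays. KO averaged 7.73 ± 0.28 and WT 7.43 ± 0.14 (SD, n = 3 each). With a difference of 0.30 (SE 0.19, 95% interval -0.12 to 0.72), or 1.23-fold, Drd1 had the smallest p of the 6 tested receptor probes (unadjusted p = 0.140, limma adjusted p = 0.583). Without KO 1 the difference was 0.16, and 0.18 was found in the uncorrected log2 signal. On KO 1 Drd1 was 0.53 above the mean of the other 5 arrays, opposite to Hrh3.

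Drd2, the inhibitory dopamine receptor, had the smallest spread across arrays of the 4 receptors detected throughout, 0.28 log2 from lowest to highest against 1.86 for Hrh3. Signals were 205.2, 205.0 and 221.8 in KO and 209.6, 216.0 and 212.3 in WT (ILMN_2988228). The WT arrays fell within the range of the KO arrays. Averages of 6.38 ± 0.16 for KO and 6.42 ± 0.054 for WT (SD, n = 3 each) gave a difference of -0.039 (SE 0.15, 95% interval -0.39 to 0.31; limma adjusted p = 0.923). The sign changed without KO 1 or KO 2 (0.0067 and 0.0085). The interval leaves room for changes of about 0.3 to 0.4 in either direction on the log2 scale.

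Of 4 markers of striatal projection neurons with a probe, where Drd1 and Drd2 are abundant, all were detected on each array. Their mean ran from 7.58 on KO 1 to 7.77 on KO 2 and, in WT, from 7.69 to 7.79, without separating the genotypes. Its members did not move alike. Rgs9 differed by -0.46 (ILMN_1250689) and Pde10a by -0.26, each with every KO array below every WT array. Of all tested probes 6.24% had that order. Rgs9 read 9.87 log2 on KO 1, against 10.74 on KO 2 and 10.69 on KO 3. A second tested Rgs9 probe (ILMN_1216553) differed by -0.75 with overlap. Gpr6 differed by 0.27 and Ppp1r1b by 0.20 (ILMN_2954824) with overlap, and none passed with limma. Gpr6 and Pde10a were dim, with signals from 172.5 to 191.6 and from 190.9 to 210.9. In the uncorrected log2 signal they differed by 0.084 and -0.093. Ppp1r1b, a protein that relays the Drd1 signal, read 8.43, 8.26 and 8.43 in KO and 7.93, 8.49 and 8.10 in WT on this probe (ILMN_2954824). Its other tested probes differed by -0.058 (ILMN_1253473) and 0.096 (ILMN_2651660). These genes are also expressed outside the striatum, so their detection does not by itself place striatal tissue in the samples.

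Over all members, 0 of the 6 tested receptor probes passed an adjusted p of 0.05 with limma, and 0 had an unadjusted p under 0.05. Of all 20006 tested probes 0.005% passed after adjustment, which is 1 probe, and 7.58% had an unadjusted p under 0.05. The tested receptors had 2 positive and 4 negative differences with a median of -0.056, beside a median of 0.021 over all tested probes. Without KO 1 there were 5 positive and 1 negative, with a median of 0.10. Only the signs of Htr1b, Drd1 (higher in KO) and Hrh1 (lower in KO) held with each of the 6 arrays left out in turn.

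**Figure D3:**
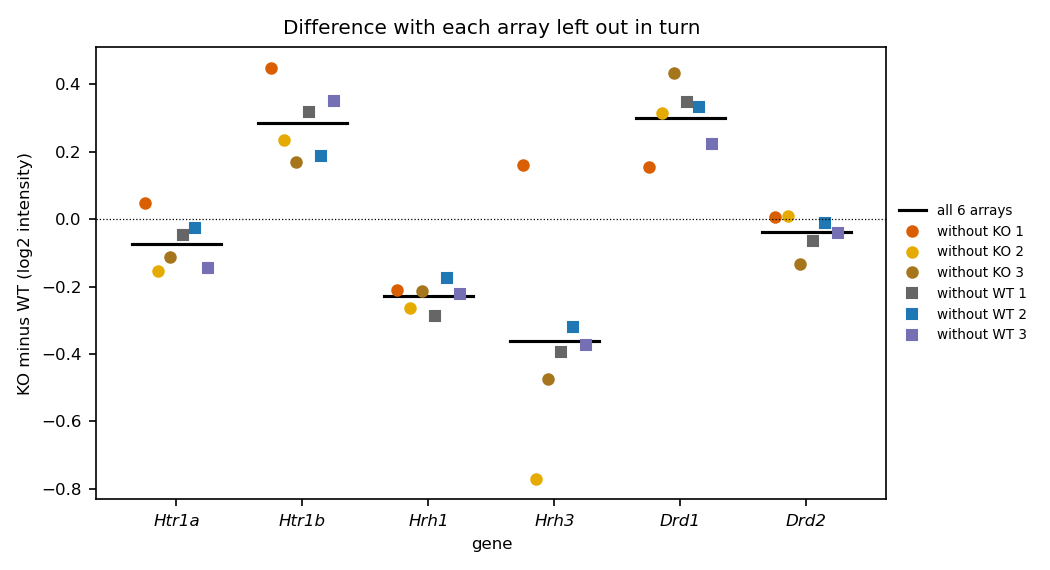
Difference KO minus WT in log2 intensity (vertical axis) for the 6 tested receptor probes, with all arrays (black bar) and with each array left out in turn (points; circles leave out a KO array, squares a WT array). For Hrh3 the points run from -0.77 without KO 2 to 0.16 without KO 1.

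The Foxo1 probes themselves do not check the genotype, because their position relative to the deleted part is not given. One of them (ILMN_2656498) was detected on all 6 arrays and differed by -0.65 (SE 0.24, limma adjusted p = 0.582), or -0.35 in the uncorrected log2 signal. Every KO array was below every WT array for this probe, as for 6.24% of all tested probes. The other (ILMN_2509340) differed by 0.34 (SE 0.35, limma adjusted p = 0.677), or 0.11 in the uncorrected log2 signal. It was near background, with signals from 156.4 to 212.4, and was not detected on KO 1 or WT 2.

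A list of 22 further receptors of the same amines was examined, of which 17 had a probe and 3 entered the test. Of their 26 probes, 21 were detected on no array, which include those of Drd3, Drd4, Drd5, Htr3a, Htr6 and Htr7. Adra2c, an inhibitory adrenergic receptor of the same subfamily as Adra2a, was the adrenergic receptor read on all arrays. One of its probes (ILMN_1235741) gave signals of 308.3, 288.7 and 327.3 in KO and 246.7, 272.4 and 278.4 in WT, with every KO array above every WT array. It differed by 0.39 (SE 0.17, unadjusted p = 0.0486, limma adjusted p = 0.582), and by 0.21 in the uncorrected log2 signal. The other detected Adra2c probe (ILMN_3152476) differed by 0.14 (SE 0.16) with overlapping arrays. The remaining Adra2c probe was not detected. Non-overlap with KO above was found for 8.84% of all tested probes. Htr1d, an inhibitory serotonin receptor, differed by 0.020 (SE 0.17), and the sign turned with cyclic loess normalization (-0.029). Htr4, which raises cyclic AMP, differed by -0.13 (SE 0.22) near background. The median of the 4 tested probes was 0.077, and 0 of them passed.

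Genes that make, carry and break down the amines were read by 13 tested probes of 9 genes, 5 with a positive and 8 with a negative difference and a median of -0.15. With limma 0 passed, and 0 had an unadjusted p under 0.05. Slc29a4, a transporter that takes up amines at the plasma membrane, had the smallest p. Its signals (ILMN_1240973) were 342.5, 723.4 and 643.3 in KO and 686.3, 750.6 and 731.5 in WT, with KO 1 far below the other 5 arrays. The difference was -0.56 (SE 0.35, limma adjusted p = 0.583), and -0.10 without KO 1, while a second tested Slc29a4 probe (ILMN_2538990) differed by 0.12. Th, the first enzyme of dopamine synthesis, averaged 7.21 ± 0.18 for KO and 7.48 ± 0.17 for WT (SD, n = 3 each), with every KO array below every WT array and a difference of -0.27 (SE 0.17, limma adjusted p = 0.584). Th was the 1 of these 13 probes with that order, which 6.24% of all tested probes showed. The Th difference was -0.17 without KO 2 and -0.15 in the uncorrected log2 signal. Ddc, which completes the synthesis of dopamine and serotonin, differed by 0.28 (SE 0.18; 0.12 without KO 1) on one probe (ILMN_1260450) and by 0.045 on another (ILMN_2628647). Tph2 and Slc6a4, which mark serotonin neurons, were detected on no array.

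Downstream of the receptors, 41 probes of 26 genes for G proteins and their effectors were tested, and 0 passed with limma or had an unadjusted p under 0.05. Differences were negative for 27 probes and positive for 14, with a median of -0.098. Without KO 1 the split was 19 negative and 22 positive, with a median of 0.027. Prkaca, the catalytic subunit of the kinase that cyclic AMP activates, averaged 11.92 ± 0.38 for KO and 12.28 ± 0.077 for WT (SD, n = 3 each; ILMN_2833376), which differ by -0.36, and by -0.15 without KO 1. Its second probe (ILMN_2833378) differed by -0.26, and by -0.091 without KO 1. Prkca, a kinase activated through phospholipase C, differed by -0.35 on one probe (ILMN_1256967), and by -0.12 without KO 1. On the other probe (ILMN_1217890) it differed by -0.061. Gnas, the stimulatory G protein that Drd1 and Adrb1 use, had 6 tested probes, which differed by -0.65 (ILMN_1252926) to 0.056 (ILMN_2638324). The probe at -0.65 differed by -0.37 without KO 1.

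For proteins that end or adjust receptor signalling 32 probes were tested, among them 3 probes of Ppp1r1b. With limma 0 of the 32 passed and 3 had an unadjusted p under 0.05. Over all tested probes 7.58% had an unadjusted p under 0.05, so 3 of 32 is near that background. The median was -0.040, with 13 positive and 19 negative differences. Pde4b, which degrades cyclic AMP, gave 248.5, 290.8 and 361.0 in KO and 463.3, 351.4 and 442.3 in WT (ILMN_2544890), a difference of -0.78 (SE 0.26, limma adjusted p = 0.582), or -0.49 in the uncorrected log2 signal. Here KO 3 lay just above WT 2. The other tested Pde4b probe (ILMN_2697552) differed by -0.018. Both probes of Rgs2, which shortens Gq signalling, were higher on every KO array than on any WT array. That order was found for 8.84% of all tested probes. The Rgs2 probes differed by 0.46 (ILMN_2480115, SE 0.18) and 0.38 (ILMN_2666622, SE 0.23), with a limma adjusted p of 0.582 for each. In the uncorrected log2 signal the first was 0.19 and the second 0.23, and without KO 1 the second was 0.11. Rgs10, which shortens inhibitory G protein signalling and is abundant in microglia, differed by 0.59 (SE 0.24, limma adjusted p = 0.582), at signals of 2487.0, 1768.6 and 1358.8 in KO and 1153.7, 1369.3 and 1233.6 in WT. KO 1 was the highest array and KO 3 lay within the WT range. Without KO 1 the Rgs10 difference was 0.34. Of the 4 microglia markers, P2ry12 and Aif1 differed by 0.68 and 0.61, and Csf1r and Cx3cr1 by -0.12 and -0.076, and none passed with limma. Their part in the Rgs10 value was not tested.

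**Figure D4:**
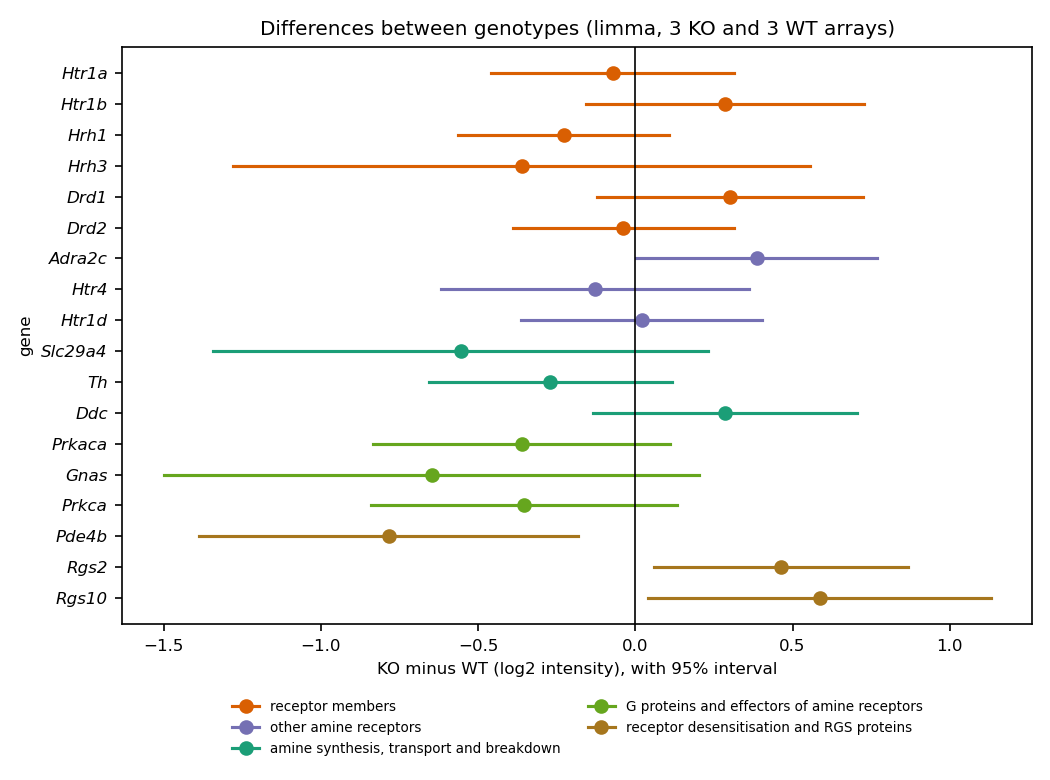
Difference KO minus WT in log2 intensity (horizontal axis) with its 95% interval from limma, for the 6 tested receptor genes and the 12 other genes named from the 4 lists, each by the tested probe with the smallest p. The intervals of the 6 receptors listed at the outset include 0, that of Hrh3 being the widest, while those of Adra2c, Pde4b, Rgs2 and Rgs10 do not. The intervals are not adjusted for the number of probes. Adra2c, Pde4b, Rgs2 and Rgs10 and their probes were picked by smallest p, so intervals without 0 follow in part from that choice. The other tested probe of Adra2c, of Pde4b and of Rgs2 had an interval that includes 0.

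Hrh3 was compared with all tested genes for likeness of pattern, measured as the root mean square difference of values centred on each probe's 6-array mean. The closest genes over the 6 arrays were Zmiz1 (0.055), Kcnc1 (0.062) and Dlgap4 (0.063), where the median gene stood at 0.597. Each shared the low KO 1 and the high KO 2 of Hrh3. Zmiz1, for instance, read 5.83, 7.78 and 7.14 log2 in KO and 7.30, 7.40 and 7.38 in WT. Kcnc1 and Dlgap4 were at background on KO 1, at 5.41 and 5.03 log2. Both were below the 5.42 of the Hrh1 probe that was not detected there, whereas Hrh3 read 7.03. All 4 genes were read on the same 6 arrays, the deviating KO 1 among them, and the likeness was not tested. Zmiz1, Kcnc1 and Dlgap4 were picked for the smallest distance, so the shared low KO 1 and high KO 2 follow from that choice.

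**Figure D5:**
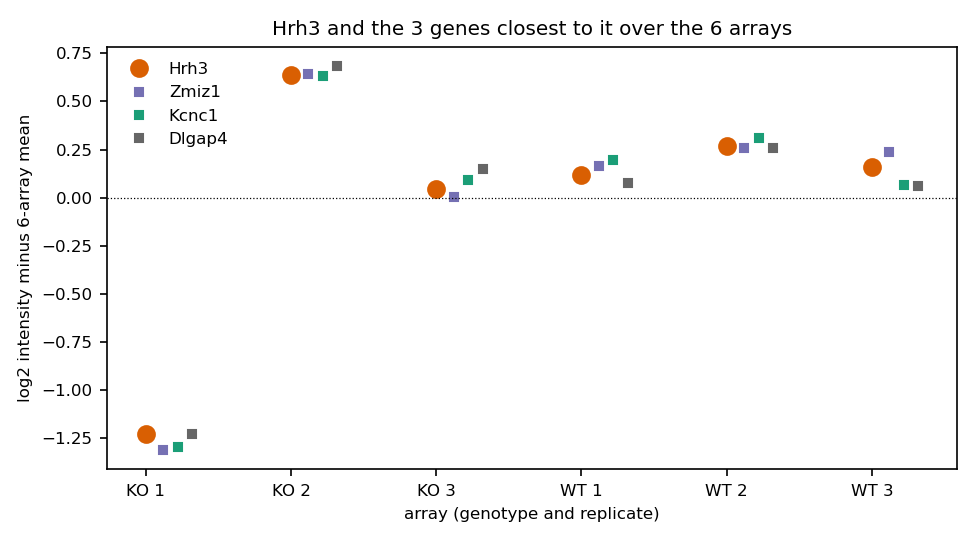
Log2 intensity minus the 6-array mean (vertical axis) of Hrh3 (large circles) and of Zmiz1, Kcnc1 and Dlgap4 (squares, shifted sideways for legibility) on each array. All 4 genes are lowest on KO 1 and highest on KO 2.

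Because FoxO1 binds DNA, the sequence before the annotated start of the receptor genes was searched for its motif. Windows of 250 bases came from the RefSeq promoter table of GRCm38.p6, which holds all 10 genes in 14 windows. The full FoxO element TGTTTAC (or GTAAACA on the other strand) was in 0 of the 14 windows, and in 3.17% of all 32851 windows of the same length. Its short core TGTTT (or AAACA), which lies within the full element, was in 5 of the 14, and in 46.4% of all windows. The GC box GGGCGG (or CCGCCC) was in 9 of the 14, and in 32.7% of all windows. The 3 genes with the largest differences, regardless of sign, are shown to compare their windows, with the short core and the GC box in capitals. The windows are chr2:180104408-180104657 for Hrh3, chr13:54055659-54055908 for Drd1 (the window further upstream of its 2) and chr9:81633833-81634082 for Htr1b, all on the minus strand and written 5′ to 3′.
Hrh3: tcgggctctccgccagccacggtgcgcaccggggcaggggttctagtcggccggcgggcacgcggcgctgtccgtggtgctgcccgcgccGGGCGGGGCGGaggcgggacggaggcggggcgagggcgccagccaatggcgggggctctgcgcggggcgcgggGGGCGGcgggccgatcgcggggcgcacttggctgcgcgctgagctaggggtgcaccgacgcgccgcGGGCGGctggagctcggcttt
Drd1: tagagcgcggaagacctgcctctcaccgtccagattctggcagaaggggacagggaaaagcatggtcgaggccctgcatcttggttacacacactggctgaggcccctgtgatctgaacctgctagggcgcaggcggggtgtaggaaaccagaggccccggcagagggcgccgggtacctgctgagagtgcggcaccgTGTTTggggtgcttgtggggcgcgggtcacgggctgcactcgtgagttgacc
Htr1b: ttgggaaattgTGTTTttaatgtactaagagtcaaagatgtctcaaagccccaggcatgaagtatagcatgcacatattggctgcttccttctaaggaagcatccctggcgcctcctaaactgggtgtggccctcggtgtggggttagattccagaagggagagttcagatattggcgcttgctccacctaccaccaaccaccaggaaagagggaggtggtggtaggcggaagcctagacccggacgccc
The Hrh3 window is 80.8% G or C, with 4 GC boxes (2 of them overlapping) and no short core. That of Drd1 is 64.0% G or C and that of Htr1b 52.4%, each with 1 short core and no GC box, while the median of all windows is 52.4%. The other Drd1 window holds no short core and 1 GC box. A match describes letters in this window and no match says only that the letters are absent from it.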

How the data were processed

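Probe signals were analysed with limma 3.58.1 in R 4.3.3. The deposited signal table pairs each linear intensity value with a detection p-value, per the file headers. The intensities of the authors had been quantile-normalized before they were deposited: the sorted signals of any array match those of the others within 0.4. They had no background subtracted. The authors' value table holds log2 of these signals (equal within 5e-05; column medians 7.30 or 7.31). Partek Genomics Suite 6.5 is named in the design text, but no source used here describes the normalization. What the detection p-value is set against is not stated; it was taken as the negative controls.

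Signals went through neqc (normexp background correction from the detection p, offset 16, quantile normalization, log2), which widens differences between dim probes. The 20006 probes detected (p under 0.05) on 3 or more arrays were tested, KO against WT without covariates, with 2-sided tests and Benjamini-Hochberg adjustment over all of them. The test was checked on simulated data with independent noise on each array. Those data held no deviating array and no replicate structure, so the check does not cover these features. Gene symbols came from the platform annotation (34885 probes with 1 symbol, 18 with several, 10378 with none), updated through RefSeq.

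The members and lists were chosen with earlier results of these data known. All members with all probes were described. Beyond them, the rule named every gene past the threshold or otherwise the 3 genes of each list with the smallest p, other amine receptors detected on all arrays, and the 3 genes most like the tested member probe with the highest mean. The design text calls the pools independent samples of 3 animals, and the precision is limited by their number. Same-numbered KO and WT pools were not treated as pairs in the main fit, because the labels state no factor besides genotype. Their deviations from the group means correlated at 0.15, 0.0037 and 0.40. These values do not show that same-numbered pools are unrelated, and a replicate block was run as an alternative. The files name no scan date or slide, so such batches were not examined. Alternatives covered the background (none, or an offset of 50), the scaling (by medians, by cyclic loess, or as in the authors' table), the filter (none, or strict, with detection p under 0.01 on all 6 arrays), the fit (weights per array, a trend with intensity, a replicate block), and each array left out. A detection threshold of 0.01 was added after seeing the data.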

Additional observations from a re-analysis of the deposited data

How the results depend on the processing

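The counts of receptor probes and of the 4 lists past the threshold were 0 under each alternative run. Without a filter all 13 receptor probes entered the fit, and 2 had an unadjusted p under 0.05 with limma (lowest adjusted p = 0.735). Over the whole array 2803 of 45281 probes had an unadjusted p under 0.05 in that run. Lowest adjusted p values of the receptors ran from 0.371 (without KO 2) to 0.937 (without KO 1). With the replicate number as a block the receptor count was also 0 (lowest adjusted p = 0.505); 5 of 6 arrays correlated best with their own number, a hint from the data only. The count over all probes, 1, became 0 without background correction, with an offset of 50, with cyclic loess, with the authors' table, without a filter, with the strict filter, with an intensity trend and with the replicate block, and ran from 0 to 1 with arrays left out. At a detection threshold of 0.01, chosen after seeing the data, 4 receptor probes were detected on all arrays and 8 rather than 5 on none.

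The 30 named differences were recomputed under 15 or 16 alternatives each, 473 values in all, of which 447 kept their direction and side of the threshold and 26 changed sign. Array weights gave 0.058 for Drd2, 0.038 for Htr1a, -0.058 for the other Ddc probe (ILMN_2628647), 0.013 for the other Pde4b probe (ILMN_2697552) and 0.096 for the other Prkca probe (ILMN_1217890). Cyclic loess gave -0.029 for Htr1d. With arrays left out, Hrh3 ran from -0.77 to 0.16, Htr1a from -0.15 to 0.048, Drd2 from -0.13 to 0.0085, Htr1d from -0.098 to 0.089 and Htr4 from -0.26 to 0.042. In the same way the other probes of Ddc ran from -0.076 to 0.15, of Pde4b from -0.079 to 0.096, of Prkca from -0.23 to 0.12 and of Slc29a4 (ILMN_2538990) from -0.014 to 0.28. Gnas probes ran from -0.27 to 0.061 (ILMN_1223437), -0.57 to 0.043 (ILMN_2483957), -0.050 to 0.14 (ILMN_2638324) and -0.20 to 0.0066 (ILMN_3075080). The cause was not tested.

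Signals near background limit Htr1b and Hrh1, whose differences were 0.089 and -0.066 without background correction against 0.29 and -0.23 with it. With 3 pools per genotype, a missed threshold does not show equal expression.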
